A study of Mus musculus with 2 samples.

Results

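The 48 genes described here encode the machinery that separates chromosomes and divides the cell: mitotic kinases, the spindle checkpoint, the kinetochore, the chromosomal passenger complex, kinesins, spindle-binding proteins, the cytokinesis ring and condensin. They were chosen by name, with earlier results of these data known. Every one had at least 1 probe on the array, 62 probes in all, of 20652 gene symbols with a probe. Liver RNA was taken from male mice injected through the tail vein with either a control adenovirus (Ad-Ctrl) or a virus that, by its label, overexpresses miR-378 (Ad-378), a microRNA. Both groups received 1e9 plaque forming units at 8 weeks of age, and each group's livers, from 5 animals, were combined into a single pool that was hybridised to a single array. The protocols in the labels place collection 2 weeks after injection in both groups, whereas the description of the Ad-378 pool gives 3 weeks. The labels give no mouse strain and do not say which liver cells took up the virus, and the level of miR-378 itself was not analysed here.

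Most hepatocytes of the adult liver are quiescent and enter the cell cycle only after injury or loss of tissue. Genes of mitosis are transcribed mainly in G2 and M phase: in resting cells the DREAM complex represses them through a promoter element called the CHR (cell cycle genes homology region), and in dividing cells B-MYB and FOXM1 with the MuvB core activate them. Their messenger RNA in a tissue is therefore commonly used as a measure of dividing cells of any type. In bulk liver RNA, fewer dividing cells and less RNA per dividing cell cannot be told apart.

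The median of the measured mitotic genes was lower in the Ad-378 pool in every functional group. Of the 48 genes, 40 were well above background on both arrays, 5 with Ad-Ctrl only, 0 with Ad-378 only, and 3 in neither pool. The 5 stand against 1.64% of all gene symbols that were above background with Ad-Ctrl only, and 3.5% were so with Ad-378 only. Of the 40, 38 had a lower level in the Ad-378 pool, 28 by at least 2-fold, and 0 were at least 2-fold higher. Among all 14288 genes measured on both arrays, 46.1% were lower in the Ad-378 pool by any amount, 4.51% by at least 2-fold, and 2.83% were at least 2-fold higher. At 1.5-fold 35 of the 40 were lower (12% of all genes) and 1 higher (8.79%), and at 3-fold 16 were lower (1.41%). The median log2 difference, Ad-378 minus Ad-Ctrl, was -1.44 over the 40 genes and 0.04 over all genes. There was no replicate of either group, so no p-value is given and no difference below has a replicate check.

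Signals below are the deposited processed signals in intensity units. Each fold or log2 difference was taken after dividing by the 75th percentile of the array, which was 800 units in the Ad-Ctrl pool and 695 with Ad-378. Every such fold compares a gene with itself between the pools, since signals of different probes cannot be compared. The error beside a log2 difference is the scanner's own estimate for both spots, which covers measurement on the array and not differences between mice. Of the 40 genes, 37 had a 95% range of this error wholly below 0, against 17.3% of all genes, and 21 had it wholly beyond 2-fold, against 1.86%.

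What many of these genes share outside the array values is their promoter. The CHR is written TTTGAA, or TTCGAA in a variant, and it acts with CCAAT boxes, where the factor NF-Y binds. RefSeq windows of 300 bases, from 250 before to 50 after the start site (build GRCm38.p6), were matched by symbol for 42 of the 48 genes. The letters TTTGAA on either strand occurred in the windows of 30 of the 42 genes (71.4%), against 20.2% of the 27025 genes with a window and 15.2% of the genes measured on both arrays. CCAAT on either strand occurred in 32 (76.2%), against 41.1% of all genes, and both sets of letters occurred in 1 window for 26 genes (61.9%), against 7.97%. TTCGAA was found in 5 (11.9% against 1.8%) and the related TTTAAA in 8 (19.0% against 14.9%). The nearest TTTGAA lay within 50 bases of the start site in 27 of the 30 genes. Positions in other genes were not computed, so this count is not read as a trait of the mitotic genes. Both strands were searched. TTCGAA and TTTAAA read the same on either strand, and neighbouring matches may share letters at their ends. A match describes these letters and does not show a bound site.

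The 120 bases before the start site are shown for 5 genes. Capitals mark TTTGAA or its reverse complement TTCAAA, and CCAAT or its reverse complement ATTGG. Prc1 and Bub3 have several windows with different start sites, and the first with a whole TTTGAA match in these bases is shown. In the other Prc1 window the letters span the start site, at -5 to 1. Cdc20, Prc1 and Ube2c were among the genes furthest below in the Ad-378 pool, and Bub3 has the same letters but differed little. Pttg1 has neither set of letters in its window. It had the highest difference of the 40 at its brightest probe, but its other probe gave -0.93. The other measured genes with neither set were at least 2-fold lower: Nusap1 (-2.13), Mad2l1 (-1.52), Birc5 (-1.45) and Ncaph (-1.32).
Cdc20 (chr4:118437344-118437463, minus strand): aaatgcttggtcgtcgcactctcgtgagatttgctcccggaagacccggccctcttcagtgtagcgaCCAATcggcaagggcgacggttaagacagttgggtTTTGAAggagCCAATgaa
Prc1 (chr7:80294356-80294475, plus strand): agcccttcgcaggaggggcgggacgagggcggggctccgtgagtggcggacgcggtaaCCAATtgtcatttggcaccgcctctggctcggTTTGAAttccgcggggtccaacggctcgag
Ube2c (chr2:164769809-164769928, plus strand): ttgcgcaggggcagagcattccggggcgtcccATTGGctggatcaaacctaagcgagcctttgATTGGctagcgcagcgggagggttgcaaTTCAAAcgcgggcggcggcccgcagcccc
Bub3 (chr7:131560250-131560369, plus strand): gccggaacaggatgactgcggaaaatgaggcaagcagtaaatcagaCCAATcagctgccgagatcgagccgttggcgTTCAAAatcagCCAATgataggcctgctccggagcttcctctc
Pttg1 (chr11:43425982-43426101, minus strand): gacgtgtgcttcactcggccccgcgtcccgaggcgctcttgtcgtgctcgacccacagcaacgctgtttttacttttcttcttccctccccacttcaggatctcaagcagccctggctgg

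In Aurka and Plk1 the TTTGAA letters lie after the start site, at positions 33 and 31, and are not shown. Genes with and without TTTGAA had like medians. The 24 measured genes with TTTGAA had a median log2 difference of -1.49 and 18 of them were at least 2-fold lower. The 11 without it had a median of -1.45 and 7 at least 2-fold lower. Those 11 include Bub1, Cenpm and Sgo1, which have TTCGAA, and Birc5 and Cenpe, which have TTTAAA. The split is by TTTGAA alone and does not compare genes with and without any form of the CHR. Across all measured genes with a window, 6.85% of the 1737 with TTTGAA and 3.99% of the 9667 without it were at least 2-fold lower, and the medians were 0.03 and 0.04.

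**Figure D1:**
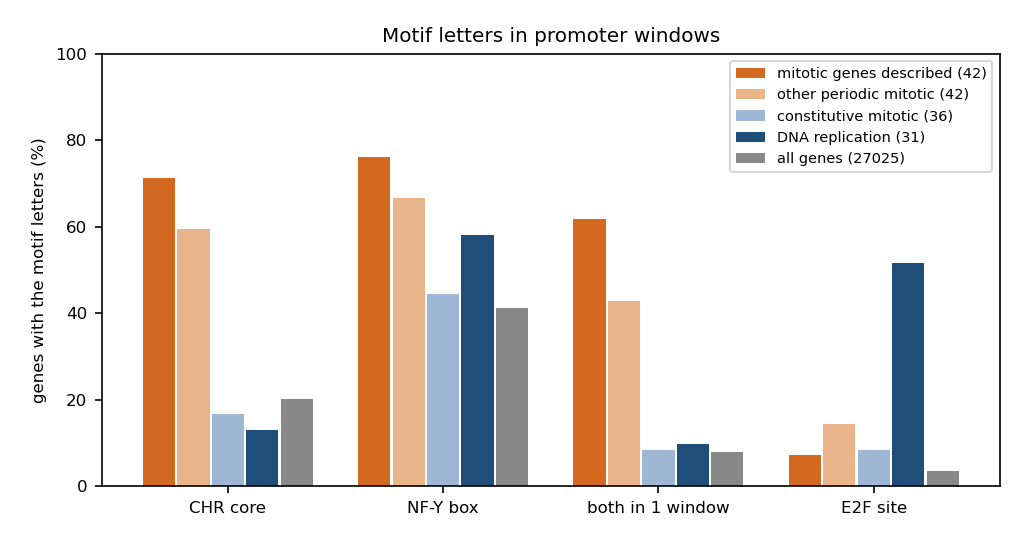
Share of genes (vertical axis, percent) whose promoter window of 300 bases holds the CHR core, the NF-Y box, both in 1 window, or an E2F site; bars are gene lists, with the number of genes in brackets. The CHR core is in 71.4% of the mitotic genes described and 12.9% of DNA replication genes, and the E2F site is in 7.14% and 51.6%.

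The mitotic kinases had the lowest median of the 8 functional groups, -2.23 over 4 measured genes, with 3 of them at least 2-fold lower. Aurka, the kinase that matures centrosomes and builds the spindle poles, had a signal of 377 in the Ad-Ctrl pool and 51.7 with Ad-378. Its log2 difference was -2.66 (scanner error 0.22), a 6.33-fold lower level after scaling. Plk1, which drives mitotic entry and kinetochore attachment, had 262 and 40.8, a log2 difference of -2.48. Only 37 of the 14288 genes were lower than Aurka, which ranked 38 from the lowest, and Plk1 ranked 48.

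Bub1, the checkpoint kinase that marks the inner centromere, was the only member printed in several spots, so its spread on the array can be seen. Its 10 spots in the Ad-Ctrl pool read 111 to 124 with a median of 116, and the 9 unmarked spots in the Ad-378 pool read 22.6 to 29.0 with a median of 25.7. The SD of log2 signal over these spots was 0.047 and 0.12, and the 2 ranges did not overlap. Spots on an array are repeats of the same RNA pool and not of mice. Averaged over spots, Bub1 had a log2 difference of -1.97. Nek2, a centrosome-splitting kinase, had 466 and 238 and the smallest difference of the group, -0.77 (0.20). Ttk, the kinase that starts checkpoint signalling, had 25.6 in the Ad-Ctrl pool and was not well above background with Ad-378. Set against the lowest signal detected there, its level was 1.97-fold lower. This bound, like those below, leaves out scanner error, which was 0.69 log2 units for Ttk.

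**Figure D2:**
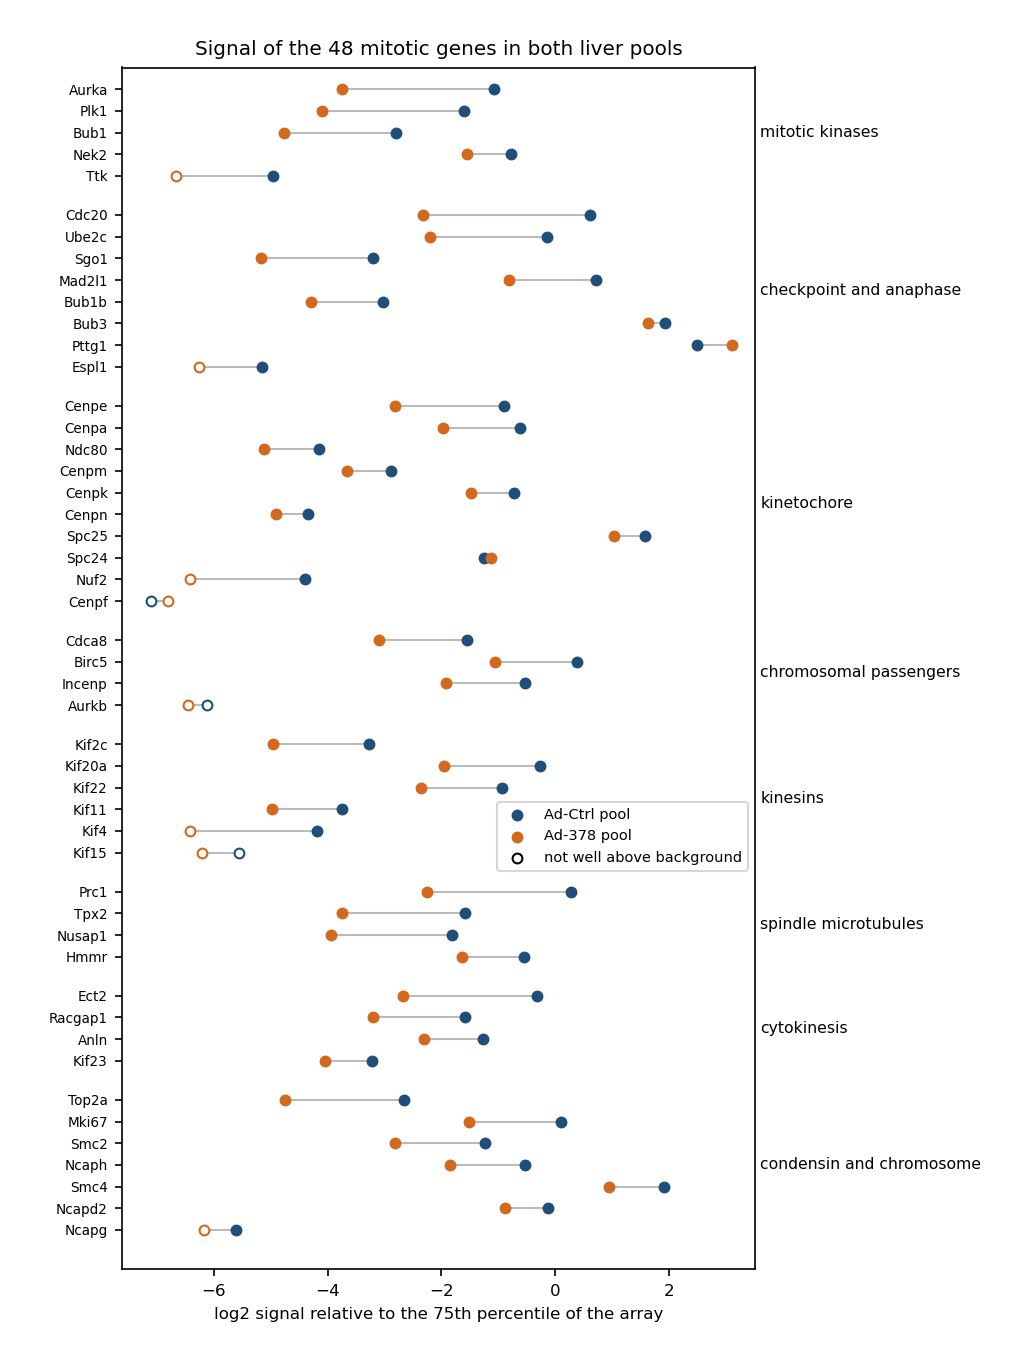
Level of each of the 48 genes in the Ad-Ctrl pool (blue) and the Ad-378 pool (orange), as log2 signal relative to the 75th percentile of the array (horizontal axis), by function; open circles are spots not well above background. Among genes with both circles filled, the orange circle lies to the left of the blue circle for all but Pttg1 and Spc24; circles of different genes come from different probes and are not to be compared.

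Checkpoint and anaphase genes held both the lowest and the highest difference of the 40. Cdc20, the activator through which the anaphase-promoting complex (APC/C) starts anaphase, read 1214 in the Ad-Ctrl pool and 138 with Ad-378, a 7.62-fold lower level (log2 -2.93, scanner error 0.21) that ranked 25 from the lowest of all genes. Ube2c, the ubiquitin-conjugating enzyme of that complex, read 726 and 150 at its chosen probe, a log2 difference of -2.07, and -2.24 at its other probe.

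The checkpoint effectors differed among themselves. Sgo1, which protects centromeric cohesion, read 86.9 and 19.3 (-1.97), and Bub1b, the BubR1 checkpoint protein, 98.4 and 35.4 (-1.27). Mad2l1, the Mad2 protein that holds Cdc20 inactive, read 1307 and 395 at its brightest probe (-1.52), but 2 dim probes with signals of 26.7 to 46.9 gave -0.49 and 0.21. Bub3, their shared partner, which also has roles outside mitosis, read 3055 and 2133. Its log2 difference of -0.32 (scanner error 0.20) had a 95% range that included 0.

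Securin and its target separase gave less certain values. Pttg1, the securin that keeps separase inactive until anaphase, read 4475 in the Ad-Ctrl pool and 5934 with Ad-378 at its brightest probe, a log2 difference of 0.61 (0.20), the highest of the 40. Its other probe, for the same transcript, read 217 and 98.8, a log2 difference of -0.93, so the direction for Pttg1 depends on the probe. Espl1, separase itself, read 22.5 in the Ad-Ctrl pool and was not well above background with Ad-378. Its bound of 1.73-fold lower leaves out a scanner error of 0.52 log2 units.

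Kinetochore genes were the group with the smallest differences. Their median was -0.76 over 8 measured genes, and 2 of the 8 were at least 2-fold lower, against 26 of the 32 measured genes of the other groups. No test of that contrast was run. The lower pair were Cenpe, the kinesin that moves chromosomes to the spindle equator, with 427 and 98.6 (-1.91, scanner error 0.21), and Cenpa, the histone H3 variant that marks the centromere, with 519 and 178 (-1.34).

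Cenpk, Cenpm and Cenpn are inner kinetochore subunits of the constitutive centromere network. Cenpk read 484 and 249 (-0.76, and -0.46 at its other probe), Cenpm 108 and 55.1 (-0.77), and Cenpn 39.6 and 23.3 (-0.56). These 3 were lower in the Ad-378 pool and inside 2-fold. Other subunits of the same network that were read here, not among the 48, lay on both sides of 2-fold. They ran from Cenpu (-2.38) to Cenpq (0.03).

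The 4 subunits of the Ndc80 complex, which bind the spindle microtubule as 1 rod, differed by unequal amounts. Ndc80 read 45.0 and 20.0 (-0.97, just inside 2-fold), and Spc25 read 2388 and 1412 (-0.55). Spc24 read 336 and 317, a log2 difference of 0.12 (0.20) whose scanner range, -0.28 to 0.52, included 0. Nuf2 read 37.9 in the Ad-Ctrl pool and was not well above background with Ad-378, a bound of 2.91-fold lower. Each of these genes but Nuf2 has a single probe, and the other Nuf2 probe was at background in both pools. Cenpf, a large outer kinetochore protein, was not well above background in either pool.

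The chromosomal passenger complex, which corrects faulty attachments and then marks the division plane, differed evenly across its measured subunits. Incenp, its scaffold, read 551 and 185 (-1.37, scanner error 0.21), Cdca8 (borealin) 273 and 81.1 (-1.55, 0.21), and Birc5 (survivin) 1047 and 332 (-1.45). All 7 probes of these 3 genes were at least 2-fold lower, from -1.37 at Incenp to -2.04 at a dim Birc5 probe. Aurkb, the kinase of the complex, was not well above background in either pool, with 11.5 and 7.98 units, and has no level here.

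The 4 measured genes grouped here as kinesins were at least 2-fold lower, with a median of -1.55. Cenpe and Kif23, which are kinesins too, are given with the kinetochore and cytokinesis genes. Kif2c, a microtubule depolymerase at the centromere, read 82.9 and 22.4 (-1.69, scanner error 0.27, and -1.53 at its other probe). Kif20a, which works in cytokinesis, read 661 and 180 (-1.68), and Kif22, which pushes chromosome arms outward, 419 and 136 (-1.43). Kif11, the motor that slides spindle poles apart, had the smallest difference of the 4, with 59.5 and 22.2 (-1.22, 0.26). Kif4, a chromosome-bound kinesin, read 44.3 in the Ad-Ctrl pool and was not well above background with Ad-378, a bound of 3.39-fold lower. Kif15 was not well above background in either pool.

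Spindle-binding genes had a median of -2.15, and all 4 were at least 2-fold lower. Prc1, which bundles the antiparallel microtubules of the central spindle, read 964 in the Ad-Ctrl pool and 146 with Ad-378, a 5.74-fold lower level (-2.52, scanner error 0.21). Tpx2, the activator of Aurka, read 267 and 51.9 (-2.16), which places it beside its kinase among the lowest of the group. Nusap1, a microtubule stabiliser, read 228 and 45.3 (-2.13), and Hmmr, a spindle pole protein that also binds hyaluronan, 544 and 224 (-1.08, 0.20).

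Cytokinesis genes ranged widely. Ect2, the exchange factor that switches on RhoA at the division plane, read 639 and 109, a 5.10-fold lower level (-2.35, scanner error 0.21). Racgap1 and Kif23 form the centralspindlin complex that recruits Ect2. Racgap1 read 265 and 75.6 (-1.61, and -1.44 at its other probe), whereas Kif23 read 85.5 and 42.3 (-0.81, 0.23) and lay inside 2-fold. Anln, the anillin scaffold of the contractile ring, read 333 and 141 (-1.03), close to the threshold.

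Among chromosome structure genes, the DNA-untangling enzyme Top2a was lowest, with 127 and 26.0 (-2.09, scanner error 0.26). Mki67, whose Ki-67 protein coats mitotic chromosomes and is the usual histological marker of proliferation, read 852 and 242 (-1.61), and 753 and 225 (-1.54) at its other probe. The condensin subunits were lower by different amounts. Smc2, an ATPase arm shared by both condensins, read 341 and 98.9 (-1.58), and its partner Smc4 read 2991 and 1332 (-0.96). Ncaph, the kleisin of condensin I, read 550 and 192 (-1.32). Ncapd2, a HEAT-repeat subunit, had the smallest difference, a log2 difference of -0.75 (0.20), or 1.68-fold. Ncapg, the other HEAT-repeat subunit, read 16.4 in the Ad-Ctrl pool and was not well above background with Ad-378. Its bound of 1.26-fold lower leaves out scanner error. Its log2 difference of -0.56 was little larger than its scanner error of 0.49.

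**Figure D3:**
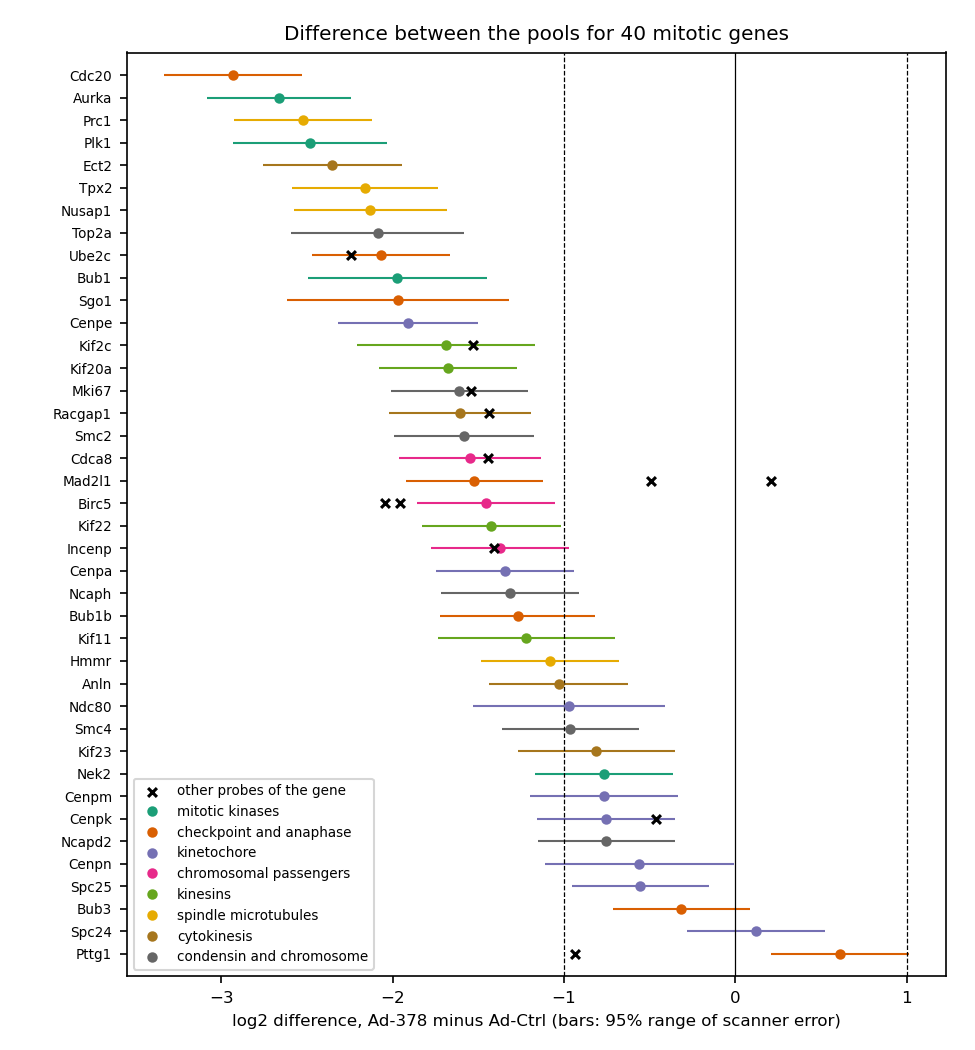
Log2 difference, Ad-378 minus Ad-Ctrl, of the 40 genes well above background on both arrays, with bars for the 95% range of scanner error, colours for function and crosses for other probes of the same gene; dashed lines mark 2-fold. Values run from -2.93 for Cdc20 to 0.61 for Pttg1, and the crosses of Pttg1 and Mad2l1 lie far from their points.

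Apart from the Bub1 spots, repeat measurements come from the 10 genes with several probes well above background on both arrays. In 7 of them (Birc5, Cdca8, Incenp, Kif2c, Mki67, Racgap1 and Ube2c) every such probe was at least 2-fold lower, with probes at most 0.59 log2 units apart. Cenpk probes were both lower and inside 2-fold. Mad2l1 and Pttg1 had probes of opposite sign, 1.73 and 1.54 log2 units apart.

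Dim genes were lower somewhat more often. Of the 20 members dimmer than the members' median level over both pools, 16 were at least 2-fold lower, and of the 20 at or above it, 12 were. Among all genes split at the same level, 6.85% of the dimmer and 3.30% of the brighter ones were at least 2-fold lower.

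Other genes of mitosis were read as 2 lists, of genes transcribed mainly in dividing cells and of genes with steady expression. Both lists were chosen with earlier results of these data known. The difference between them was not tested and is description only. Of 50 further periodic mitotic genes, 32 were measured on both arrays. Their median was -1.62, and 22 lay at least 2-fold below Ad-Ctrl and 0 at least 2-fold above, beside 4.51% and 2.83% of all genes. The lowest were Ckap2, a spindle protein, with 305 and 30.6 (-3.11), the mitotic kinase Pbk with 229 and 29.4 (-2.75), the minus-end kinesin Kifc1 with 208 and 28.1 (-2.69) and the centromere gene Cenpu with 91.9 and 15.3 (-2.38). Another 13 of the 50 were above background with Ad-Ctrl only and 0 with Ad-378 only, beside 1.64% and 3.5% of all gene symbols.

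Genes that act in mitosis but are expressed in resting cells too lay near the level of all genes. Of 45 such genes, which include the core APC/C, cohesin, dynein and dynactin and the gamma-tubulin ring, 43 were measured, with a median of -0.13. At least 2-fold lower were 2 of them (4.65%, beside 4.51% of all genes), and 0 were at least 2-fold higher. That pair were Zwilch, with 307 and 56.1 (-2.25), and Cenpt, with 447 and 145 (-1.42), both of which are kinetochore proteins. The next by size were Nsl1 (-0.87), of the Mis12 complex, and Ndel1 (-0.82), a dynein regulator. In their promoter windows TTTGAA occurred in 16.7% of 36 genes, between the 15.2% of genes measured on both arrays and the 20.2% of all genes. It occurred in 59.5% of 42 further periodic genes.

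The cyclin and kinase genes that start mitosis were split. Of 10 genes, 5 were at least 2-fold lower: Cdk1, the mitotic kinase, with 695 and 102 (-2.56), its inhibitor Pkmyt1 with 618 and 110 (-2.28), the cyclins Ccnb1 with 542 and 99.1 (-2.25) and Ccnb2 with 860 and 158 (-2.24), and cyclin A2, Ccna2, with 494 and 132 (-1.70), named after its value was seen. At least 2-fold higher were 0 of the 10, and the median was -1.19. Of all genes measured on both arrays, 4.51% were at least 2-fold lower and 2.83% at least 2-fold higher. DNA replication genes had a median of -0.78 with 15 of 37 at least 2-fold lower and 0 higher, led by the helicase subunit Mcm6 (-2.51) and the hemimethylated DNA reader Uhrf1 (-2.45). TTTGAA was in 12.9% of 31 replication gene windows and an E2F site (TTTGGCGC, TTTCGCGC or TTCCCGCC) in 51.6%, while an E2F site was in 7.14% of the 42 mitotic genes with a window, 5.8% of genes measured on both arrays and 3.39% of all genes with a window.

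Of 23 genes for the transcription factors that control mitotic genes, the median was -0.23, and 4 lay at least 2-fold below and 0 above. They were Foxm1, the activator of G2 and M genes, with 147 and 29.6 (-2.11), the DREAM pocket protein Rbl1 with 458 and 140 (2.83-fold lower), E2f1 with 194 and 71.6 (-1.24) and E2f5 with 386 and 162 (-1.05). Of 15 G1 cyclin and inhibitor genes, 13 were measured, with a median of -0.21. At least 2-fold lower were 3, the cyclin genes Ccne1 (-2.04) and Ccne2 (-1.45) and the inhibitor gene Cdkn1c (-1.59). Beside both of these lists, 4.51% of all measured genes were at least 2-fold lower.

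**Figure D4:**
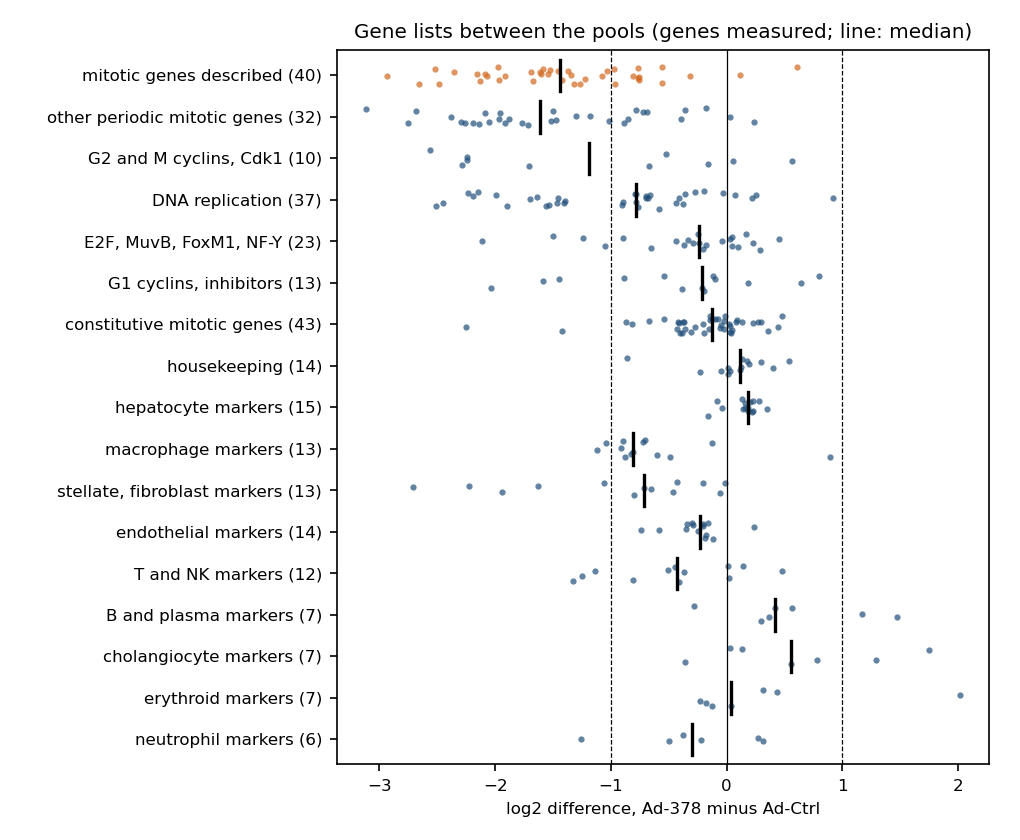
Log2 difference, Ad-378 minus Ad-Ctrl, of each measured gene (points) in the mitotic genes described (orange), related cell cycle lists and liver cell type markers (blue), with the number measured in brackets; vertical strokes are medians and dashed lines mark 2-fold. Medians are -1.44 and -1.62 for the 2 periodic mitotic lists, -0.13 for constitutive mitotic genes and 0.18 for hepatocyte markers.

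The arrays do not show which cells held these transcripts, and markers of some liver cell types differed too. All 15 hepatocyte markers were well above background in both pools, with a median of 0.18. Their summed signal, in units of the array's 75th percentile, was 2058 in the Ad-Ctrl pool and 2319 with Ad-378. Such a sum, here and below, is weighted to the brightest probes and does not measure the share of a cell type. Macrophage markers were lower in 12 of 13 genes, with a median of -0.81 and a summed signal of 152 and 83.4. Their lowest were Cd5l (-1.12), Adgre1 (-1.04) and Marco (-0.91), and Cd163 was not above background in either pool. Stellate cell and fibroblast markers were lower in 13 of 13, with a median of -0.71 and a summed signal of 84.7 and 43.8, led by Col3a1 (-2.71), Col1a1 (-2.22) and Lum (-1.94), and Des was not above background in either pool.

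Smaller or opposite differences were seen in the other cell types. T and NK cell markers were lower in 8 of 12 genes, with a median of -0.43 and a summed signal of 13.2 and 12.9, and Klrb1c and Ncr1 were each above background in 1 pool only. The lowest of them were the cytotoxic granule genes Gzma (-1.33) and Gzmb (-1.25) and the T cell gene Cd8a (-1.14). Markers were lower in 13 of 14 genes for sinusoidal endothelium (median -0.23, summed signal 67.5 and 56.4). They were lower in 4 of 6 for neutrophils (-0.30, 4.40 and 4.61) and in 3 of 7 for erythroid cells (0.04, 79.7 and 92.4), beside 46.1% of all genes. The erythroid sum is largely Tfr2, with signals of 25959 and 30423, and Hba-a1, with 22365 and 17803. Ltf and Ngp of the neutrophil list were above background with Ad-378 only. Their signals in the Ad-Ctrl and Ad-378 pools were 18.7 and 14.8 for Ltf and 15.9 and 15.6 for Ngp. These calls are therefore not read as higher levels. The erythroid gene Alas2 was 4.04-fold higher with Ad-378. Markers of B and plasma cells (0.42, 0.884 and 1.47) and of cholangiocytes (0.56, 8.66 and 13.9) were higher in 6 of 7 genes each. The part of any of these cell types in the lower mitotic signals was not tested. The medians of hepatocyte and housekeeping genes turned negative under quantile normalization (-0.02 and -0.03) and loess (-0.05 each).

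The size of the mitotic difference was smaller under the settings that start from the raw median signal, while 38 of the 40 genes stayed lower in the Ad-378 pool under every setting tried and Pttg1 also turned lower with the mean over probes (-0.16). On the deposited series matrix values, which keep the background in the signal, the median of the 40 genes was -1.11 and 21 were at least 2-fold lower, where 2.76% of all genes were. After normexp background correction it was -0.94, with 19 at least 2-fold lower, against 2.37%. With the other scalings 30 of 40 were, against 4.83% of all genes by quantile normalization, 5.18% by loess and 4.92% by the 75th percentile of detected probes. The count was 27 with the mean over probes (4.32%), 28 with outlier spots kept (4.52%) and 32 of 48 with no filter on background (5.64%). Some dim genes differed much between these settings: Sgo1 went from -1.97 to -0.77 on the matrix values and -0.57 after normexp, Kif2c from -1.69 to -0.66 and -0.52, and Bub1 from -1.97 to -0.97 and -0.78. Under the same settings the bright genes Cdc20 (-2.49 and -2.38) and Mad2l1 (-1.44 and -1.41) differed less. With the mean over probes, however, Mad2l1 went to -0.60, inside 2-fold.

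**Figure D5:**
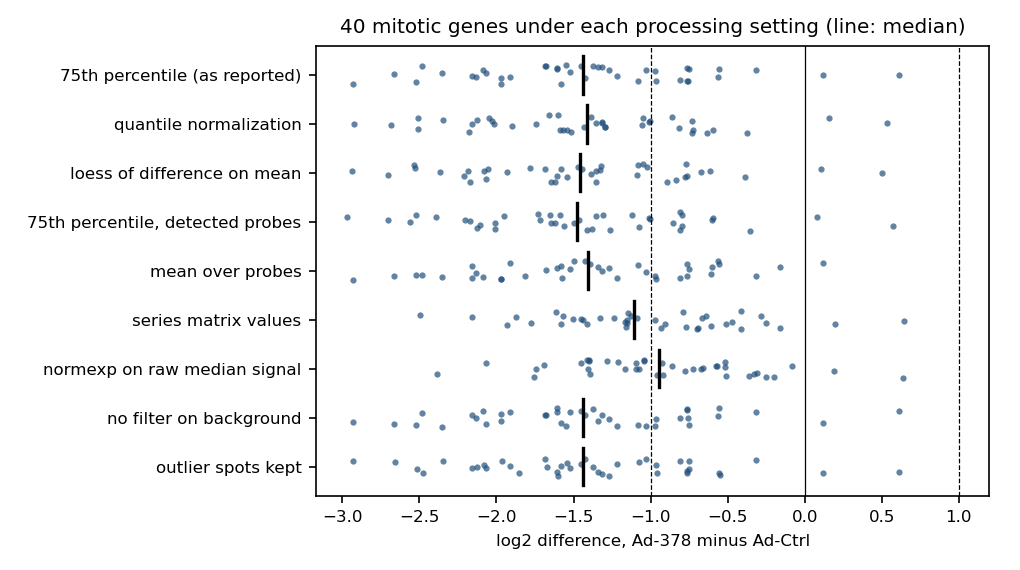
Log2 difference, Ad-378 minus Ad-Ctrl, of the same 40 genes (points) under the reported scaling and 8 other settings; vertical strokes are medians and dashed lines mark 2-fold. The median runs from -1.48 to -0.94, and Spc24 lies above 0 in every row, as does Pttg1 except with the mean over probes.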

How the data were processed

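Each liver pool was measured on 1 Agilent 1-colour array. The labels' protocol describes a blood RNA kit that removes globin transcripts, although the tissue is liver. Per the file headers, the authors' processed signal is a linear spot intensity that was corrected for background and spatial trend and not scaled between arrays. Other deposited values are flags of 0 or 1. Feature Extraction is version 9.1 in the submitters' processing notes and 11.0.1.1 in the headers. The deposited series matrix intensity equals the raw median signal in 100% of values.

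Control spots and outlier spots (123 gene spots per array) were left out. Values are log2 of processed signal minus the array's 75th percentile. Transcript identifiers were matched without versions to a RefSeq table of GRCm38.p6, which also gave the promoter windows, whereas the array design names mm9. Of a gene's probes above background on both arrays, the brightest was used. For a gene above background in 1 pool, the bound sets its value there against the other pool's own signal or lowest detected signal, whichever was higher. Scanner error and the probe's own detection limit are left out of this bound. Genes were counted at 2-fold. No test was run between single arrays, whose number limits the precision.

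The members and lists were chosen with earlier results of these data known. All 48 members may be named, with up to 4 genes of each other list and 3 of each marker list by size of difference. Protein motifs were planned and not run. Normexp (limma 3.58.1, offset 50) used the raw median signal. The steps were tested on simulated data. Software was Python 3.11.15, numpy 2.4.6, pandas 2.3.3 and statsmodels 0.14.6.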

Additional observations from a re-analysis of the deposited data

How the results depend on the processing

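No paired analysis was possible because both groups consist of replicate 1 alone, and so no replicate could be left out. The median of the 40 genes, -1.44 as reported, became -1.11 with the series matrix and -0.94 with normexp. It lay between -1.48 and -1.41 under 5 other settings and was -1.40 over all 48 genes with no filter on background. The count at least 2-fold lower ran from 19 to 32 over the 8 settings, beside 28 as reported. With no filter, Espl1, Kif4, Nuf2 and Ttk joined. Anln, Bub1, Bub1b, Hmmr, Kif11, Kif2c and Sgo1 left with the series matrix, and with normexp Cdca8 and Top2a left as well. Both settings use the raw median signal, and the cause was not tested. Ndc80 and Smc4 joined under quantile, loess and the other 75th percentile, and Mad2l1 left with the mean over probes. At a 1.5-fold threshold 1 gene, Pttg1, was higher, and at 3-fold 16 were lower. Of 320 member values under the alternatives, 282 lay within the 95% scanner range of the reported value and 38 outside it. Further periodic mitotic genes had a median of -0.83 with the series matrix, -0.70 with normexp and -1.92 with no filter. Normexp with local background was not used, since 1 local background reading far above the rest distorts that fit for Ad-Ctrl.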

Other observations

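The spacing of the promoter letters was looked at after the windows had been seen. CCAAT letters starting 25 to 35 bases before TTTGAA, both on either strand, occurred in 10 of the 42 mitotic genes with a window (23.8%), namely Bub3, Cdc20, Hmmr, Kif11, Mki67, Ncapd2, Prc1, Top2a, Ttk and Ube2c, and in 0.622% of all genes with a window. The share was 7.14% of 42 further periodic mitotic genes, and 0 of 36 constitutive mitotic and 0 of 31 replication genes had it. Of the 61 genes measured on both arrays with this spacing, 12 were at least 2-fold lower in the Ad-378 pool and the median log2 difference was -0.24, against 4.35% and 0.04 for the 11343 without it. Of those 61 genes, 9 are mitotic genes described above, 7 of them at least 2-fold lower, so the remaining genes add 5 of 52.

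Several further mitotic genes were above background in the Ad-Ctrl pool only. Genes picked in this way are nearly bound to read lower with Ad-378, so their values are description only. Oip5, which helps to load the centromeric histone, read 128 units in the Ad-Ctrl pool and 14.2 with Ad-378, 7.80-fold lower after scaling. Depdc1a read 112 and 13.0, 7.48-fold lower. Both Ad-378 signals were above the lowest detected signal there, 11.3, but were not well above background at their own spots. Each of these folds therefore rests on a signal that was not detected with Ad-378, and is not a measured difference. Fam83d, a spindle protein, read 94.6 with a bound of 7.25-fold lower. Sgo2a, a shugoshin, read 77.1 with a bound of 5.91-fold lower. All of these genes were chosen after their values were seen. These folds use the processed signal alone.

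Mybl2, the gene for B-MYB, did not share the low level of Foxm1, with 116 units in the Ad-Ctrl pool and 118 with Ad-378 (log2 difference 0.23, scanner error 0.21). E2f7, an atypical repressor of cell cycle genes, read 115 and 104 (0.05), also chosen after their values were seen. Within the further periodic mitotic genes, Ube2s, the chain-elongating partner of Ube2c, read 874 and 893 (0.24, scanner error 0.20) and Cenpq 215 and 190 (0.03), the 2 positive values of the 32.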
